A study of Mus musculus with 12 samples.

Results

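In G1E-ER-GATA-1 cells, 37 of 25097 measured genes had a gene length that differed by a ratio of at least 1.5, or at most 0.667, between estradiol-treated and untreated wild-type (WT) cells. Gene length is a column of the deposited tables, and it gives the mean length in bases of the transcripts listed for a gene, each weighted by its estimated abundance. It changes when one transcript of a gene gives way to a longer or shorter one, and it is an estimate from short reads and not a measured transcript end. The ratio was taken between the means of 3 libraries per group. The lengths of both groups also had to lie apart without overlap, and the mean expected count had to reach 10 per 1000000 of the library total (CPM) in both groups. This floor was passed by 6469 genes, of which 4900 list 2 or more transcripts and so can vary in length. Estradiol-treated WT cells had the longer length in 19 genes, 0.294% of the 6469, and the shorter length in 18 genes, 0.278%, or 0.572% in either direction. The genes were chosen by these lengths and counts of the 6 WT libraries, so lengths and counts of these genes between both WT groups are given below as a description, with no test.

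The cells are mouse erythroid precursors without a working Gata1 gene of their own, in which a fusion of GATA-1 with the estrogen receptor's hormone-binding part is held inactive until beta-estradiol is added. All groups grew with erythropoietin, medium conditioned by cells that make Kit ligand, and puromycin. The groups were mutant cells with 1 µM estradiol and 1 mM 5-aminolevulinic acid (5-ALA) for 48 h, mutant cells with estradiol alone for 48 h, WT cells with estradiol for 48 h, and untreated WT cells, with 3 libraries each. No time is given for the untreated WT cells, so a difference in culture time cannot be told apart from estradiol. The labels call the mutant a double mutant, altered in cis-elements of Alas2, which encodes the erythroid form of the synthase that starts heme synthesis by making 5-ALA. Whether the mutant line is 1 clone, and whether libraries of a group came from separate cultures, is not given in the sources used here, so p-values measure the spread between these libraries.

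A gene can yield transcripts of different length through another start site, another splice junction, a retained intron or another polyadenylation site. Maturing erythroblasts are known for regulated intron retention in many transcripts and for alternative splicing of membrane skeleton genes. Splicing factors such as Srsf1 control their own mRNA through splicing in its non-coding part, which can send the mRNA to nonsense-mediated decay.

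The libraries held between 20309085 and 43548387 expected counts, which are reads assigned to a gene with shared reads divided by likelihood. Alas2 had 11.6 ± 0.272 CPM in mutant cells with 5-ALA, 7.73 ± 2.23 in mutant cells, 3903 ± 12.5 in estradiol-treated WT cells and 5.91 ± 0.976 in untreated WT cells (mean ± SD, n = 3, as for all such values below). All 11 erythroid markers of a list were detected in every group. Their summed level ranged from 64110 to 68200 CPM in mutant cells with 5-ALA, from 24790 to 26210 in mutant cells, from 72760 to 73390 in estradiol-treated WT cells and from 655.9 to 694 in untreated WT cells. The mast cell list of 8 genes summed to at most 1.58 CPM in mutant cells with 5-ALA and 1.03 in mutant cells, to between 2.55 and 3.03 in estradiol-treated WT cells and to between 163 and 176 in untreated WT cells. The megakaryocyte list of 8 genes summed to between 688 and 695 CPM in mutant cells with 5-ALA, 430 and 446 in mutant cells, 1680 and 1703 in estradiol-treated WT cells and 216 and 224 in untreated WT cells. The 5 progenitor genes summed to between 40.3 and 44.2 CPM in mutant cells with 5-ALA, 39.7 and 42.7 in mutant cells, 83.6 and 86.5 in estradiol-treated WT cells and 1405 and 1458 in untreated WT cells. Mcpt8, Tpsb2 and Fcer1a of the mast cell list were at 0 in all groups. Lists of granulocyte and macrophage, lymphocyte and fibroblast genes stayed at or below 2.06 CPM in every library. The part of these marker differences in the differences of length and count given below was not tested.

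Sequences around points where listed transcripts part are shown for 3 genes with few listed transcripts. These are annotated sequences and not RNA of these libraries. They were read from the GENCODE M21 transcripts (GRCm38). In 5430416N02Rik, a long intergenic non-coding RNA on chromosome 5, and in Ovca2 on chromosome 11, capitals mark bases found in that transcript alone. In Nubpl on chromosome 12, capitals mark the exon before the junction, which differs between both transcripts. The windows span chr5:100426706-100426765 for the longer 5430416N02Rik transcript, chr11:75178358-75178659 for Ovca2, both on the minus strand, and chr12:52144030-52181121 on the plus strand for Nubpl-201, junctions included.
5430416N02Rik-201: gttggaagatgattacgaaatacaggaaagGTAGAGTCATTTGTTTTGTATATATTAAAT
5430416N02Rik-202: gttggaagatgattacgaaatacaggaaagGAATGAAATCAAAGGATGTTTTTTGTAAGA
Ovca2-201: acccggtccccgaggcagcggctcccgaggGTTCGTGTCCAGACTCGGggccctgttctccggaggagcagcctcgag
Ovca2-202: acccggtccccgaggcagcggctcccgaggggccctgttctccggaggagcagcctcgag
Nubpl-201: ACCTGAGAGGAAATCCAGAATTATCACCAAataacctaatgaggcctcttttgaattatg
Nubpl-205: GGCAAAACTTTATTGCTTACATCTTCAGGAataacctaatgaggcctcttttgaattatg
In 5430416N02Rik-201 and Ovca2-201 the capitals begin with GT, the first bases of most introns, at the point where the other transcript is spliced. The window of Ovca2-201 is coding sequence over all its 78 bases. Most of the difference in length between both Ovca2 transcripts, 2670 and 745 bases, lies outside the window.

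The 19 genes with a longer length in estradiol-treated WT cells had ratios between 1.52 and 3.65, with a median of 1.79. The largest ratio was that of Tmbim1, which encodes a membrane protein of the TMBIM family (chromosome 1, 74288247 to 74305622, minus strand). Its length was 9443, 9686 and 9674 bases in estradiol-treated WT cells, against 2641, 2657 and 2598 bases in untreated WT cells. The libraries of each group lay close together and the groups far apart. One listed transcript, Tmbim1-202 with 11011 bases, keeps the first intron of 8683 bases that is removed from Tmbim1-201, and both hold the same 927 coding bases. If the transcripts have the lengths that GENCODE M21 gives, arithmetic bounds put Tmbim1-202 at 81.7% to 86.7% of the gene's transcripts in estradiol-treated WT cells, against 0% to 20.7% in untreated WT cells. Tmbim1 also had more reads, with expected counts of 8616, 8113 and 6119 in estradiol-treated WT libraries, against 1167, 725 and 1171 in untreated WT libraries.

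**Figure D1:**
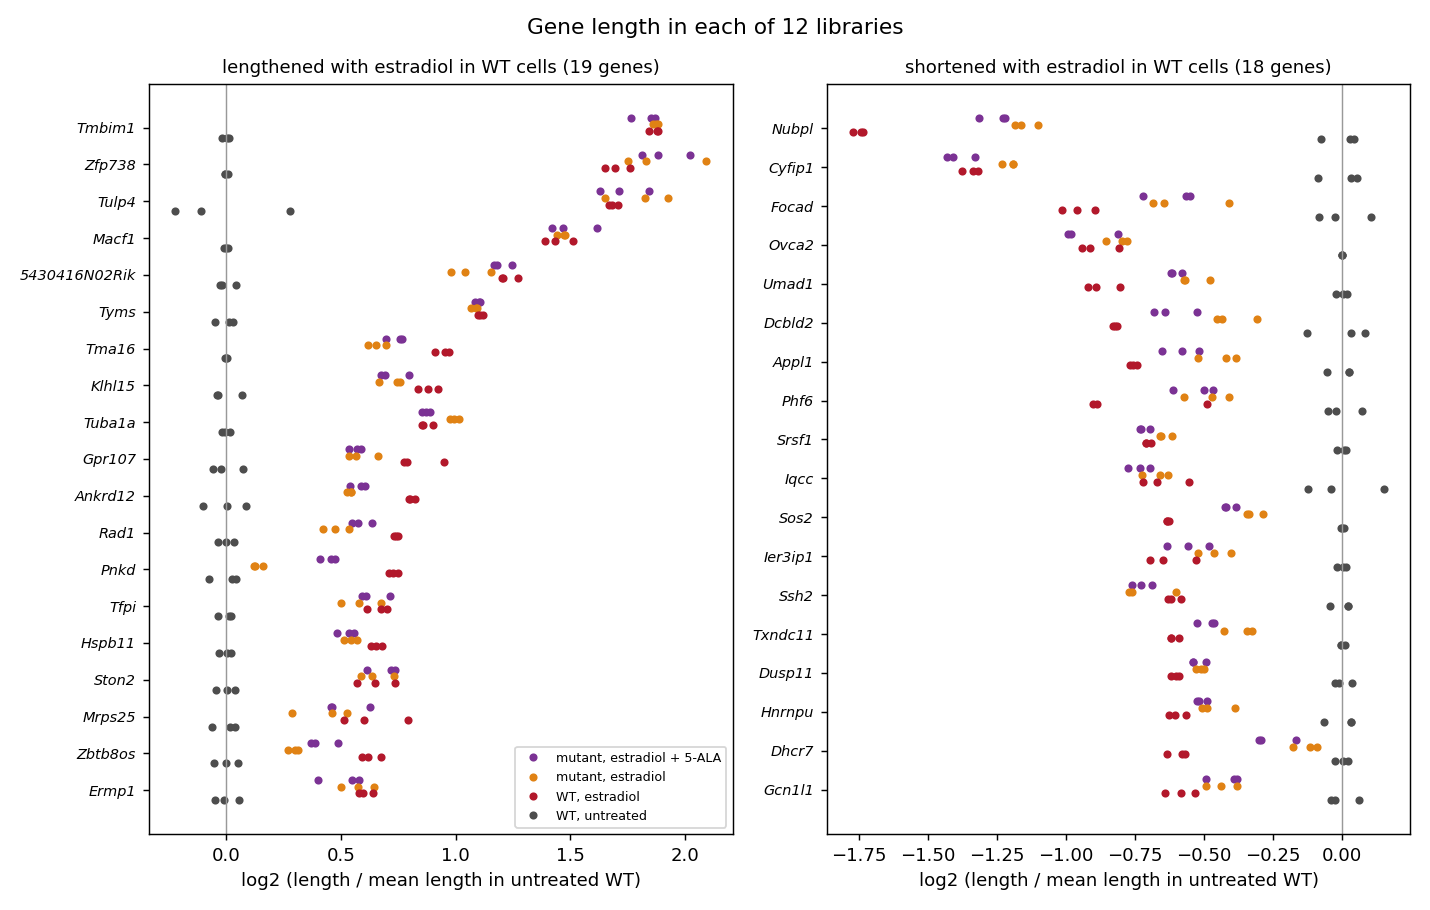
Length of the 37 genes in every library, as log2 of the length over the mean length in untreated WT cells, for 19 lengthened genes (left) and 18 shortened genes (right). Each point is 1 library, with 3 per group, and the untreated WT points lie apart from those of the other groups in all 37 genes.

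Zinc finger gene Zfp738 had lengths of 2506, 2580 and 2703 bases in estradiol-treated WT cells, against 796, 804 and 795 bases in untreated WT cells, a ratio of 3.25. Its 5 listed transcripts are all coding and 1 of them, with 13215 bases, is far longer than the rest. Under M21 lengths that transcript made up 15.1% to 15.8% of the gene's transcripts in estradiol-treated WT cells, against 0.691% to 1.5% in untreated WT cells. Tulp4, a member of the tubby-like family, had 4348, 4386 and 4464 bases in estradiol-treated WT cells, against 1661, 1175 and 1270.5 bases in untreated WT cells. The groups did not overlap, though the untreated libraries spread with an SD of 257.5 bases. Macf1, which crosslinks actin filaments and microtubules and has 16 listed transcripts of 1109 to 23495 bases, had 10354, 10045 and 10937 bases in estradiol-treated WT cells, against 3834, 3809 and 3864 bases in untreated WT cells.

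The non-coding 5430416N02Rik had lengths of 3048, 3039 and 3189 bases in estradiol-treated WT cells, against 1298, 1361 and 1304 bases in untreated WT cells. It has only the pair of transcripts shown above, so its length fixes their shares under M21 lengths. The transcript of 3486 bases came to 86.2% in estradiol-treated WT cells, against 24.3% in untreated WT cells. Tyms, which encodes thymidylate synthase, had 3246, 3221 and 3273 bases in estradiol-treated WT cells, against 1457, 1539 and 1521 bases in untreated WT cells. Its coding transcript has 3163 bases, less than the length after estradiol, and the other 5 listed transcripts, of 618 to 3884 bases, are annotated as non-coding, with a retained intron or as targets of nonsense-mediated decay. Under M21 lengths the longest, a target of nonsense-mediated decay, could make up 11.6% to 80.5% in estradiol-treated WT cells, against 0% to 27.2% in untreated WT cells. The level of Tyms was 20.03 ± 1.18 CPM in estradiol-treated WT cells, against 104 ± 2.34 in untreated WT cells, so that the longer length came with fewer reads.

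Next in order were Tma16, a ribosome biogenesis factor (ratio 1.92), Klhl15, an adaptor of Cul3 ubiquitin ligases (1.84), Tuba1a, an alpha-tubulin (1.83), Gpr107, a membrane protein of the Golgi (1.79), and Ankrd12 (1.75). Tma16 had 2571 ± 56.4 bases in estradiol-treated WT cells, against 1336 ± 5.38 in untreated WT cells, and the untreated length lies below the shortest M21 transcript of 1895 bases. Tuba1a had 1274 ± 25.5 bases in estradiol-treated WT cells, against 697 ± 8.46 bases in untreated WT cells, below both of its listed transcripts found in M21. Those are Tuba1a-201 with 1803 bases and a transcript of 899 bases that M21 gives to another gene, Gm49450. The authors' annotation thus differs from M21 for both genes, and no shares are given for them. The listed transcripts of Tuba1a share 426 exon bases with the near-identical tubulin gene Tuba1b, which stood at 142 CPM in estradiol-treated WT cells, against 1974 in untreated WT cells. Its own level was 89.4 ± 4.62 CPM, against 136 ± 4.03, and the part of reads shared with Tuba1b was not tested.

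The remaining lengthened genes had ratios from 1.52 to 1.67. They include Rad1, a subunit of the clamp that loads at DNA damage, the coagulation inhibitor Tfpi, the endocytic adaptor Ston2, Hspb11, a protein of intraflagellar transport, Mrps25 of the mitochondrial ribosome, Ermp1, a metallopeptidase of the endoplasmic reticulum, Pnkd and Zbtb8os. Ermp1 has 1 coding transcript among 8, its longest with 7058 bases. Under M21 lengths it made up 90.0% to 96.4% of the gene's transcripts in estradiol-treated WT cells, against 0% to 60.7% in untreated WT cells. In Hspb11 the longest transcript is annotated as processed and not as coding. It made up 74.6% to 80.0% in estradiol-treated WT cells, against 22.6% to 39.2% in untreated WT cells.

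The 18 genes with a shorter length in estradiol-treated WT cells had ratios between 0.297 and 0.667, with a median of 0.626. They include RNA-binding and RNA-processing proteins (Srsf1, Hnrnpu and Dusp11), Ras and actin regulators (Sos2, Cyfip1 and Ssh2) and proteins of the endoplasmic reticulum (Dhcr7, Txndc11 and Ier3ip1). Nubpl, which delivers iron-sulfur clusters to respiratory complex I, had lengths of 449, 452 and 440.5 bases in estradiol-treated WT cells, against 1549, 1533 and 1427 bases in untreated WT cells. Its 1 coding transcript has 2987 bases and spans the gene at chromosome 12, 52097737 to 52312744. The bounds under M21 lengths put this transcript at 0% to 3.27% in estradiol-treated WT cells, against 11.6% to 43.5% in untreated WT cells. At least 57.0% of the gene's transcripts in estradiol-treated WT cells were then Nubpl-205, a processed transcript of 361 bases that starts at 52176087, inside the gene. Its window above shows its own exon in capitals, spliced to an exon that it shares with Nubpl-201. Nubpl had expected counts of 522, 507 and 394 in estradiol-treated WT libraries, against 1128, 642 and 1111 in untreated WT libraries.

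Cyfip1, a subunit of the WAVE complex that drives actin branching, had 1019, 1007 and 979 bases in estradiol-treated WT cells, against 2641, 2394 and 2602 bases in untreated WT cells. Its transcripts of 4178 bases or more include 3 coding ones, and 6 of 10 are annotated with a retained intron. Focad had 2246 ± 92.0 bases in estradiol-treated WT cells, against 4356 ± 295 bases in untreated WT cells. Ovca2, a serine hydrolase, had 1388, 1524 and 1418 bases in estradiol-treated WT cells, against exactly 2670 bases, the length of its coding transcript Ovca2-201, in all 3 untreated WT libraries. With M21 lengths Ovca2-201 made up 36.3% in estradiol-treated WT cells, against 100% in untreated WT cells. Ovca2 shares 969 exon bases on the same strand with Dph1, which stood at 4.48 CPM in estradiol-treated WT cells, against 45.0 in untreated WT cells.

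Of the RNA-binding proteins, the splicing factor Srsf1 had 1525, 1507 and 1506 bases in estradiol-treated WT cells, against 2478, 2488 and 2432 bases in untreated WT cells. Its 7 listed transcripts hold 3 coding ones of 1209, 2948 and 5362 bases and 2 targets of nonsense-mediated decay of 401 and 896 bases. Srsf1 stood at 242 ± 4.07 CPM in estradiol-treated WT cells, against 689.5 ± 5.37 in untreated WT cells. The nuclear RNA-binding protein Hnrnpu has 1 coding transcript of 7640 bases, which came to 18.2% to 21.1% under M21 lengths in estradiol-treated WT cells, against 34.6% to 36.9% in untreated WT cells. Dusp11, a phosphatase that acts on the 5′ end of RNA, likewise has 1 coding transcript, at 14.7% to 20.1% in estradiol-treated WT cells, against 30.5% to 34.9% in untreated WT cells. Its counts lay the other way, at 499 ± 6.98 CPM, against 216 ± 0.918. Umad1 had 2447 ± 100.7 bases in estradiol-treated WT cells, against 4476 ± 61.3 in untreated WT cells, and Dcbld2 had 1628 ± 6.4, against 2879 ± 217. Phf6, which binds chromatin, had 1461 ± 247, against 2452 ± 109.9, and its estradiol-treated library with 1746 bases lay above the others at 1325 and 1311. Iqcc had 782 ± 46.7 bases, against 1224 ± 122. Gcn1l1, an activator of the kinase Gcn2, had 4438 ± 162, against 6657 ± 255. For Appl1, an adaptor of early endosomes, the 1 coding transcript of 7642 bases made up 36.2% to 42.6% in estradiol-treated WT cells, against 74.2% to 76.8% in untreated WT cells.

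**Figure D2:**
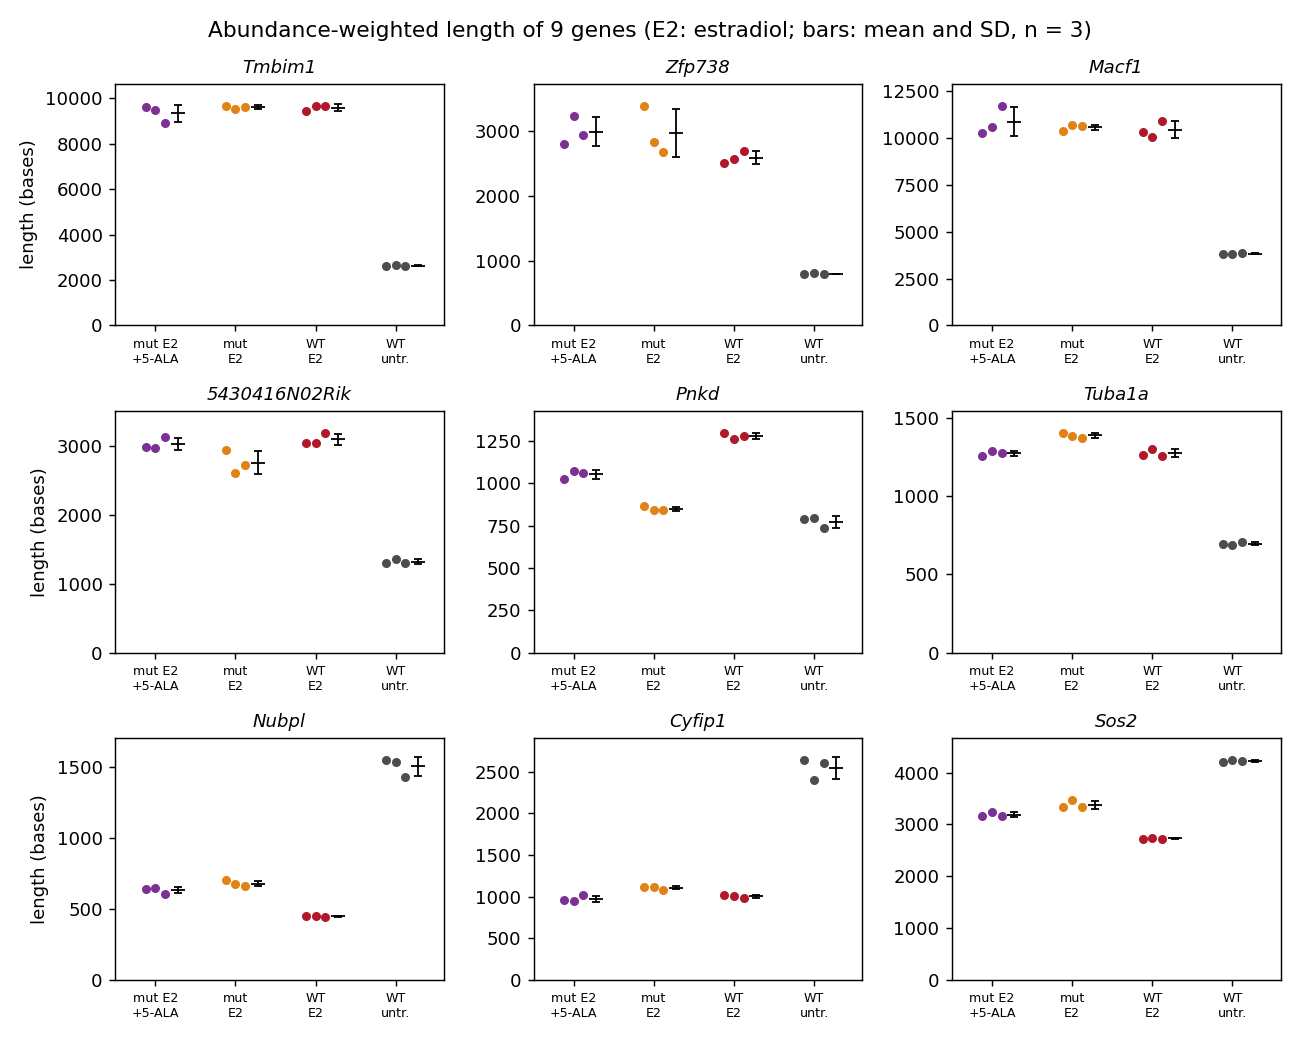
Abundance-weighted length in bases of 9 genes in mutant cells with estradiol and 5-ALA, mutant cells with estradiol, WT cells with estradiol and untreated WT cells. Each point is 1 library and the bars give mean and SD (n = 3). Pnkd in mutant cells lies at 849 bases, near the 772 bases of untreated WT cells, whereas Tmbim1 in mutant cells lies at 9624 bases, near the 9601 bases of estradiol-treated WT cells.

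Close to the limits of the rule, the last lengthened genes inside were Ermp1 (ratio 1.52), Zbtb8os (1.55) and Mrps25 (1.56), and the first outside were Trmt10a (1.496), Ccdc186 (1.48) and Mycbp (1.47). Among shortened genes the last inside were Gcn1l1 (0.667), Dhcr7 (0.662) and Hnrnpu (0.660), and the first outside were Invs (0.671), D3Ertd751e (0.672) and Tonsl (0.673). Over the 4872 genes past the floor whose length varied, the ratio was above 1 in 2221 and below 1 in 2638, with a median log2 ratio of -0.0024. The mean transcript length of a whole library, weighted by transcripts per 1000000 (TPM), was 1626 to 1653 bases in mutant cells with 5-ALA, 1740 to 1764 in mutant cells, 1700 to 1706 in estradiol-treated WT cells and 1639 to 1647 in untreated WT cells.

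The 37 genes shared few features beyond the rule. They list between 2 and 16 transcripts, with a median of 7, beside a median of 6 over the 4898 annotated genes past the floor with 2 or more. A transcript with a retained intron is listed for 27 of 37, or 73.0%, beside 61.4% of those genes, and for 83.3% of the shortened and 63.2% of the lengthened genes. A transcript annotated for nonsense-mediated decay is listed for 29.7%, beside 30.6%. The longest transcript is protein-coding in 81.1%, beside 80.4%. The genes were less abundant, with a median of 38.8 CPM beside 66.4, and their lengths spread more between libraries of 1 group, with a median coefficient of variation of 2.74% beside 2.00%. The GATA motif AGATAA (or its reverse complement TTATCT) occurs in 2 of 39 RefSeq promoter windows of 300 bases (GRCm38.p6) that matched 32 of the genes. Those are windows of Mrps25 and Tfpi, or 5.13%, beside 11.2% of all 32851 windows. Other forms of the GATA motif were not counted, though some of these windows hold them.

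Exons overlap those of another gene in the tables for 10 of the 37, and in 9 of them that gene reached 1 CPM. Whether strand was used in counting is not given in the sources used here, so reads of partners on either strand can enter the estimate. In Dcbld2 the partner St3gal6, on the opposite strand with 1603 shared bases, stood at 16.5 CPM in estradiol-treated WT cells, against 71.0 in untreated WT cells. In Umad1 the partner Glcci1, on the same strand with 5412 shared bases, stood at 2.87, against 18.4. Nr2c2, which shares 4590 bases with Mrps25 on the opposite strand, stood at 147, against 90.3, and Nipa2, which shares 1316 bases with Cyfip1, at 27.8, against 44.2. Tmem234, which shares 378 bases with Iqcc on the opposite strand, stood at 177, against 204. Iqcc itself stood at 17.4 CPM in estradiol-treated WT cells, against 26.2 in untreated WT cells. Hacd4, Snn and Zbtb8a overlap Focad, Txndc11 and Zbtb8os, and stood at or below 5.43 CPM in both WT groups. Tmbim1 lies within the span of Pnkd on chromosome 1, on the opposite strand, and shares no exon bases with it. The part of these neighbours in the lengths was not tested.

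Read counts and length-corrected levels went apart in many of the genes. CPM were higher in estradiol-treated than in untreated WT cells for 9 of 19 lengthened and 3 of 18 shortened genes. With the TMM scaling used in the tests, counts were higher for 9 and 5. TPM, which divides by length, was higher for 6 and 11. Over all genes past the floor, CPM were higher in 41.85% and TPM in 43.47%. Both measures differed in sign for 11 of 37 genes, beside 2.52% of all genes past the floor, and for 10 beside 2.23% when each measure is set against its median over those genes. TPM is computed with the length that chose the genes, so the gap follows from the rule. Nubpl stood at 15.8 ± 0.348 CPM in estradiol-treated WT cells, against 31.9 ± 0.961 in untreated WT cells, but at 65.57 ± 2.36 TPM, against 35.0 ± 2.16. Macf1 had 555 ± 6.64 CPM, against 273 ± 3.30, but 88.5 ± 3.76 TPM, against 115 ± 2.36. For Tmbim1 the ratio was 7.39 in CPM and 2.08 in TPM, and for Cyfip1 0.378 and 1.03. Ankrd12 had the highest ratio in CPM, 11.3 beside 6.66 in TPM, and Sos2, which activates Ras, the highest in TPM, 8.65 beside 5.34 in CPM.

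**Figure D3:**
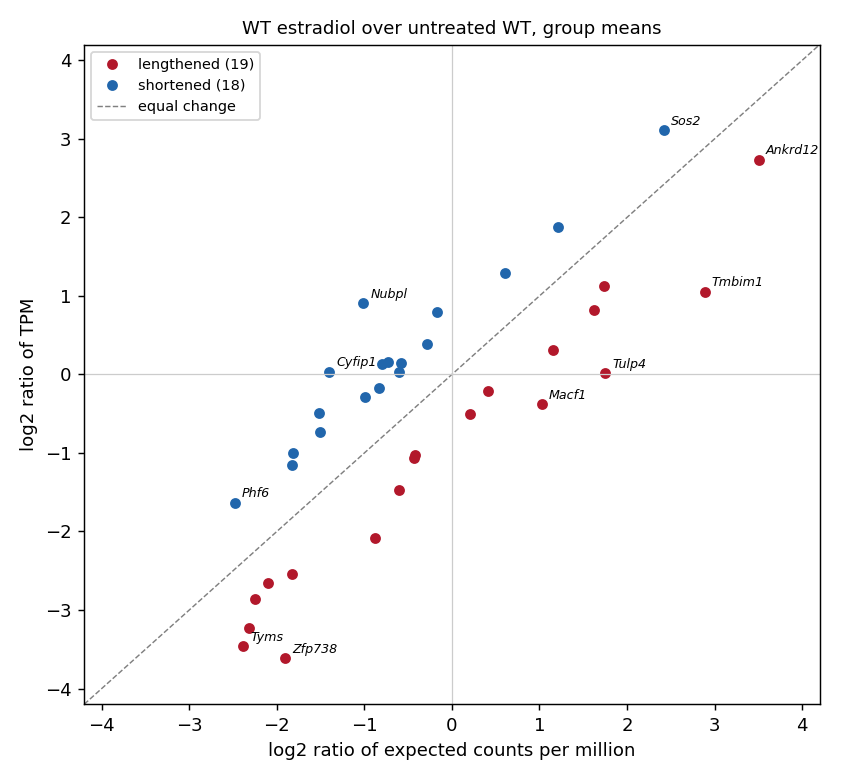
Log2 ratio of estradiol-treated over untreated WT cells in CPM (horizontal) and in TPM (vertical), from group means, 1 point per gene. The 19 lengthened genes lie below the line of equal change and the 18 shortened genes above it, and 11 genes fall where both ratios differ in sign.

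In mutant cells, which make little Alas2 mRNA, the same genes again differed from untreated WT cells. The series holds no untreated mutant cells, so a change with estradiol within mutant cells cannot be measured. The lengths of mutant and untreated WT libraries lay apart for all 37, beside 40.9% of 4797 genes past the floor in all groups. The same held for all 6 mutant libraries with and without 5-ALA, beside 30.4%. The untreated libraries also chose the genes, so these counts are a description. The genes differed in how near mutant cells came to estradiol-treated WT cells. Lengths of mutant and estradiol-treated WT libraries did not overlap for 25 of 37 genes, beside 28.0% of the 4797. Mutant cells had the shorter length in 10 lengthened genes, beside 12.7%, and the longer length in 14 shortened genes and in Tuba1a, beside 15.2%. Because the estradiol-treated WT libraries chose the genes for extreme lengths, the direction of these differences is partly set by the choice.

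Pnkd, which was linked in people to a movement disorder and encodes a protein related to glyoxalase enzymes, differed most among the lengthened genes. Its length was 865, 842 and 841 bases in mutant cells, against 1298, 1264 and 1278 bases in estradiol-treated WT cells, a ratio of 0.663. Untreated WT cells had 787, 797 and 733 bases, below all mutant libraries. Zbtb8os followed with 1049 ± 16.3 bases in mutant cells, against 1322 ± 39.6 in estradiol-treated WT cells. Tma16 had 2104 ± 58.3 bases, against 2571 ± 56.4, Ankrd12 had 3768 ± 29.0, against 4536 ± 43.3, and Rad1 had 1609 ± 64.6, against 1930.2 ± 12.5. The genes with the 4 largest ratios overlapped. Tmbim1 had 9685, 9543 and 9645 bases in mutant cells, all within the range of the estradiol-treated WT libraries. Macf1, Tulp4 and Zfp738 also overlapped, at 10580 ± 148, 4778 ± 451 and 2974 ± 376 bases in mutant cells, against 10445 ± 453, 4399 ± 59.0 and 2596 ± 99.4 in estradiol-treated WT cells.

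Among shortened genes, Nubpl had 700, 672 and 661 bases in mutant cells, against 449, 452 and 440.5 in estradiol-treated WT cells, a ratio of 1.52. Dhcr7, which catalyses the last step of cholesterol synthesis, had 1591, 1566 and 1499.5 bases in mutant cells, against 1091, 1135 and 1143 in estradiol-treated WT cells. The mutant lengths lay near, and below, the 1721, 1664 and 1699 bases of untreated WT cells. Dcbld2 had 2130, 2323 and 2101 bases in mutant cells, against 1621, 1634 and 1628 in estradiol-treated WT cells. Umad1 had 3077 ± 115 bases in mutant cells, against 2447 ± 100.7, Focad 2924 ± 309, against 2246 ± 92.0, and Appl1 4409 ± 217.5, against 3545 ± 33.2. The overlapping neighbour of Dcbld2, St3gal6, stood at 65.3 CPM in mutant cells, against 16.5, and this was not tested as a source of the length. Sos2 had 3345, 3471 and 3332 bases in mutant cells, against 2724, 2741 and 2725. The 4 shortened genes that overlapped between mutant and estradiol-treated WT cells were Iqcc, Ssh2, Ovca2 and Phf6.

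Neither mutant group entered the rule, so lengths with and without 5-ALA could be tested. With limma on log2 length over 5233 genes, 1 gene was called at an adjusted p below 0.05 (0.0191%), and none of the 37 was. That gene, Slc7a11, a cystine transporter, was named after its value was seen (log2 ratio 0.63, adjusted p = 3.73e-04). At an unadjusted p below 0.05 there were 603 genes, or 11.5%, and 14 of the 37. When all 12 libraries were fitted together, limma called 7 longer and 11 shorter genes, among them Pnkd and Tuba1a. That fit takes in the spread of the WT lengths, by which the 37 genes were chosen, so it is no test of them. Without overlap, 4 lengthened genes were longer with 5-ALA, beside 8.17% of 4797 genes. Shorter with 5-ALA without overlap were 7 shortened genes and Tuba1a, beside 9.69%, and the share in either direction was 17.9%.

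Pnkd had 1025, 1072 and 1059 bases in mutant cells with 5-ALA, against 865, 842 and 841 in mutant cells (log2 ratio 0.31, SE 0.0224, adjusted p = 0.0667 by limma). The groups did not overlap, and both lay under the 1264 bases of the shortest estradiol-treated WT library. Tuba1a had 1259, 1289 and 1275 bases with 5-ALA, against 1406, 1389 and 1373 without (log2 ratio -0.12, SE 0.0138, adjusted p = 0.0793 by limma). Estradiol-treated WT cells had 1262, 1304 and 1258 bases of Tuba1a, so that mutant cells with 5-ALA overlapped them and mutant cells without it did not. Cyfip1 had 959, 944 and 1014 bases with 5-ALA, against 1113, 1115 and 1083 without, a log2 ratio of -0.18 (SE 0.0316, adjusted p = 0.18 by limma). Dcbld2 had 1794, 1847 and 1998 bases, against 2130, 2323 and 2101 (log2 ratio -0.22, adjusted p = 0.33 by limma). St3gal6, which overlaps it, stood at 50.6 CPM with 5-ALA, against 65.3 without.

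Smaller differences without overlap were those of Nubpl (log2 ratio -0.10, SE 0.0359), Txndc11 (-0.12, SE 0.0338), Sos2 (-0.09, SE 0.0212), Srsf1 (-0.08, SE 0.0170) and Umad1 (-0.06, SE 0.0309). Zbtb8os, Rad1 and 5430416N02Rik were longer with 5-ALA by log2 ratios of 0.12, 0.11 and 0.14, with SEs of 0.0351, 0.0396 and 0.0520. Adjusted p-values of these 8 genes ranged from 0.251 to 0.534 in limma. The lengths of Tmbim1, Macf1, Tulp4 and Zfp738 overlapped between mutant cells with and without 5-ALA, as did those of 21 other genes of the 37.

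Counts of the genes were tested with edgeR's quasi-likelihood test with Benjamini-Hochberg adjustment over 12115 genes. All 37 passed the count floor of the rule in the mutant groups too, though the floor was set on WT libraries alone. Of the 37, 31 were called between mutant and estradiol-treated WT cells, beside 68.8% of all genes. Counts in mutant cells were lower in 22, beside 33.6%, and higher in 9, beside 35.1%. Among the genes called lower, Gpr107, Zbtb8os, Macf1, Tmbim1 and Gcn1l1 had the higher mean CPM in mutant cells. Macf1 stood at 565 CPM in mutant cells, against 555 in estradiol-treated WT cells, and Tmbim1 at 259, against 252. CPM are scaled by the library total and the test by TMM, so the falls of these genes depend on the scaling. The lengthened genes were higher in 3 and lower in 15, with a median log2 fold change of -0.24, and the shortened ones higher in 6 and lower in 7, with a median of -0.05, beside -0.01 over all genes. Ston2, the endocytic adaptor, fell most, to 13.9 ± 0.633 CPM in mutant cells, against 41.3 ± 0.832 in estradiol-treated WT cells (log2 fold change -1.72, SE 0.0556, adjusted p = 1.95e-21). Its lengths overlapped, at 2614 ± 135 bases, against 2614 ± 150.5. Sos2 fell to 190, 190 and 192 CPM in mutant cells, against 487, 483 and 497 (log2 fold change -1.51, SE 0.0233, adjusted p = 3.38e-29).

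Other falls in mutant cells included those of Ssh2, a phosphatase that activates cofilin (log2 fold change -0.71), Txndc11, a thioredoxin-like protein (-0.68), and Tulp4 (-0.62). Focad (-0.56), Ankrd12 (-0.55), Tuba1a (-0.51), 5430416N02Rik (-0.47), Hnrnpu (-0.46) and Srsf1 (-0.24) also fell. Adjusted p-values by edgeR were at most 0.00143 in these 9 genes. Tfpi (-0.42), Rad1 (-0.41) and Tyms (-0.35) were among the further genes called lower. Dhcr7 rose to 37.8 ± 1.45 CPM in mutant cells, against 19.8 ± 0.673 in estradiol-treated WT cells (log2 fold change 0.78, SE 0.0443, adjusted p = 1.50e-15). Phf6 rose to 28.4 ± 2.78, against 15.0 ± 1.01 (0.77, SE 0.0759, adjusted p = 1.05e-07). Dcbld2 (0.47), Zfp738 (0.37) and Dusp11 (0.19) were among the others that rose.

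**Figure D4:**
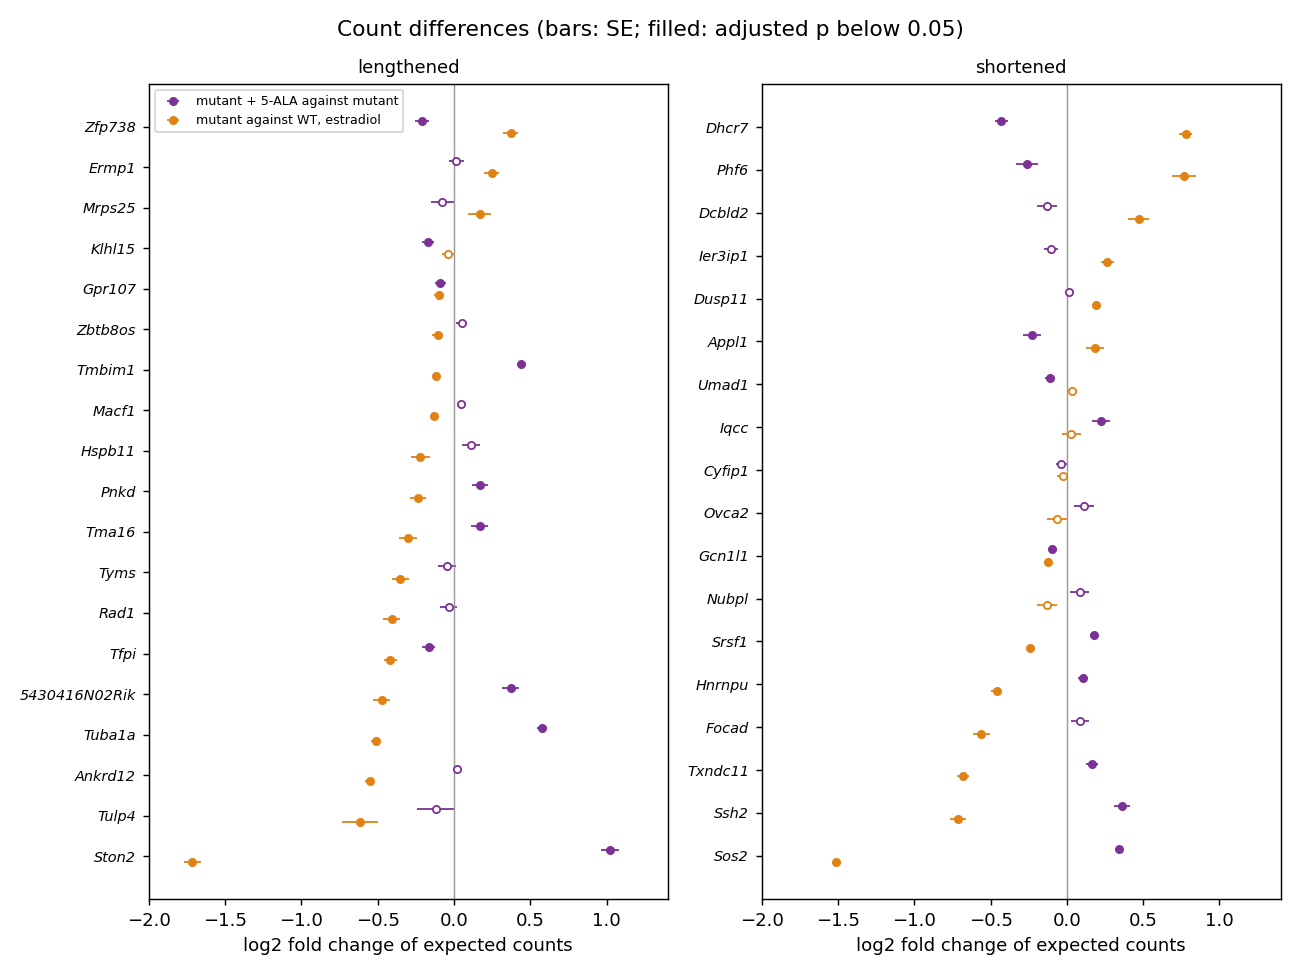
Log2 fold change of expected counts for the 19 lengthened and 18 shortened genes, in mutant cells with 5-ALA against mutant cells (purple) and in mutant against WT cells, all with estradiol (orange). Bars give the SE, and filled points passed an adjusted p of 0.05. Ston2 and Sos2 lie furthest below 0 in the second comparison, at -1.72 and -1.51.

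TPM of estradiol-treated WT cells is divided by the lengths that chose the genes, so log2 fold changes of TPM in mutant against WT cells are given with no test. Pnkd had -0.24 in counts (adjusted p = 2.25e-04 by edgeR) and 0.56 in log2(TPM + 1), with 54.2 ± 3.88 TPM in mutant cells, against 36.4 ± 1.90 in estradiol-treated WT cells. Zbtb8os had -0.11 in counts and 0.43 in TPM, Gpr107 -0.10 and 0.35, and Tma16 -0.30 and 0.17. In all 4 genes the length was shorter in mutant cells. Ankrd12 had -0.55 in counts and -0.09 in TPM, 5430416N02Rik -0.47 and -0.10, Tulp4 -0.62 and -0.53, and Dcbld2 0.47 and 0.21. Scaling by total counts in place of TMM raised the median log2 fold change by 0.15 here, and on that scale Gpr107 stood at 104 ± 2.85 CPM in mutant cells, against 100.3 ± 2.65, and Zbtb8os at 56.0 ± 1.21, against 54.4 ± 0.743. Gpr107 and Zbtb8os also did not pass without the filter on low counts (adjusted p = 0.0991 and 0.108 by edgeR). Without estradiol-treated WT replicate 3 they had adjusted p = 0.121 and 0.0528. Gpr107 did not pass without mutant replicate 2 (0.0954 by edgeR), and Zbtb8os not without mutant replicate 1 (0.0959 by edgeR). Nubpl did not pass in counts (log2 fold change -0.13, SE 0.0643, adjusted p = 0.0773 by edgeR) but did with RLE size factors (adjusted p = 0.0370 by edgeR). In TPM it stood at 43.4 ± 1.92 in mutant cells, against 65.57 ± 2.36 in estradiol-treated WT cells. TPM was not rescaled for composition. Over all genes limma on TPM called 5618 higher and 2326 lower, beside 4258 and 4076 with edgeR.

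With 5-ALA, counts of 12 of the 37 genes rose and 9 fell against mutant cells, beside 21.6% and 21.0% of all genes in edgeR and 42.6% in either direction. Lengthened genes rose in 6 and fell in 4, and shortened genes rose in 6 and fell in 5. Ston2 rose to 26.5 ± 1.42 CPM, against 13.9 ± 0.633 in mutant cells (log2 fold change 1.02, SE 0.0573, adjusted p = 6.54e-15). Tuba1a rose to 97.0 ± 1.11, against 69.5 ± 3.62 (0.58, SE 0.0350, adjusted p = 5.42e-14). Its paralog Tuba1b stood at 121 CPM with 5-ALA, against 79.4 without. Tmbim1 rose to 327 ± 7.98, against 259 ± 10.1 (0.44, SE 0.0245, adjusted p = 5.34e-15), while its length of 9344 ± 364 bases overlapped the 9624 ± 73.0 bases of mutant cells. Dhcr7 fell to 26.1 ± 0.792, against 37.8 ± 1.45 (-0.43, SE 0.0423, adjusted p = 1.4e-09).

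The non-coding 5430416N02Rik rose with 5-ALA by a log2 fold change of 0.37, Ssh2 by 0.36, Sos2 by 0.34, Srsf1 by 0.17, Txndc11 by 0.17 and Pnkd by 0.17, and Phf6 fell by 0.26. Pnkd passed narrowly (adjusted p = 0.00992 by edgeR) and did not pass without 1 of several libraries, mutant replicate 1 (adjusted p = 0.0557), mutant replicate 2 (0.0773) or 5-ALA replicate 2 (0.0558). In TPM Pnkd was lower with 5-ALA, at 42.3 ± 1.2, against 54.2 ± 3.88 in mutant cells (log2 fold change -0.35, adjusted p = 2.39e-04 by limma). Sos2 passed in TPM too, whereas 5430416N02Rik (0.02, adjusted p = 0.796), Ssh2 (0.15, 0.0889), Srsf1 (0.05, 0.33) and Txndc11 (0.08, 0.113) did not pass in limma on TPM. Over all genes limma on TPM called 806 higher and 5719 lower with 5-ALA, beside 2620 and 2543 with edgeR, and for the 37 genes 4 higher and 17 lower. The comparisons of mutant cells with WT cells and with 5-ALA share the mutant libraries.

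Lists of genes that act on transcript ends, splicing and decay hold 1 of the 37 genes, Srsf1, and are read against the shares called over all genes. Those shares were 43.3% higher and 46.4% lower in estradiol-treated against untreated WT cells by edgeR, or 89.7% in all. Of 24 cleavage and polyadenylation factors 13 rose and 9 fell in WT cells, with a median log2 fold change of 0.22, beside -0.03 over all genes. Cstf2, which binds downstream of the cleavage site, fell to 29.1 ± 0.667 CPM with estradiol, against 238 ± 2.13 in untreated WT cells (log2 fold change -2.70, SE 0.0317, adjusted p = 7.39e-34). Cpsf3, the endonuclease that cuts the pre-mRNA, fell to 34.3 ± 1.4, against 184 ± 1.35 (-2.08), and Nudt21, a factor that favours distal sites, to 31.1 ± 1.21, against 142 ± 2.42 (-1.85). The poly(A) polymerase Papolg rose to 74.0 ± 2.67, against 24.6 ± 1.00 (1.94). Scaling by total counts in place of TMM lowered the median log2 fold change by 0.34 in this comparison. That shift is smaller than each of these changes but larger than the median of the list, which therefore changes sign with the scaling. The median over all genes moves down with it, so the list stays above that median.

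Splicing regulators rose in 15 and fell in 22 of 39 tested, with a median log2 fold change of -0.45 in WT cells. Hnrnpa1 fell to 144 ± 1.02 CPM with estradiol, against 1622 ± 15.8 in untreated WT cells (log2 fold change -3.16), though processed copies of this gene make its counts uncertain. Mbnl3 fell to 6.74 ± 0.446, against 70.2 ± 1.91, Celf2 to 0.831 ± 0.393, against 17.4 ± 1.88, and Rbfox2 to 0.078 ± 0.111, against 6.30 ± 0.405. Of 18 genes of nonsense-mediated decay 10 rose and 8 fell, with a median of 0.26, again smaller than that shift. The decapping enzyme Dcp2 fell to 36.4 ± 0.993, against 177 ± 1.17 (-1.94), and Magoh, Rnps1 and Rbm8a of the exon junction fell by 1.47, 1.46 and 1.12 on the log2 scale. Adjusted p-values of these 8 genes by edgeR were at most 2.03e-12.

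In mutant against estradiol-treated WT cells, the 3 lists were lower in 15 of 24, 21 of 39 and 12 of 18 genes and higher in 2, 11 and 6, beside 33.6% lower and 35.1% higher over all genes. Ppp1cb fell to 418 ± 17.7 CPM, against 618 ± 11.1 (log2 fold change -0.72). Ptbp2, a splicing repressor, fell to 63.0 ± 1.87, against 108 ± 2.31 (-0.92), and rose with 5-ALA to 81.3 ± 2.09, against 63.0 ± 1.87 in mutant cells (0.46). Hnrnpa1 rose to 374 ± 9.94 in mutant cells, against 144 ± 1.02 (1.23), and fell with 5-ALA to 224 ± 5.16, against 374 ± 9.94 (-0.64). Pabpc1, which binds poly(A) tails, rose with 5-ALA to 4083 ± 19.0, against 3744 ± 42.2 (0.23), and Dcp2 fell to 32.8 ± 1.77, against 46.7 ± 0.970 (-0.42). These changes passed an adjusted p of 0.05 in edgeR. With 5-ALA the 3 lists rose in 9, 11 and 4 genes and fell in 4, 10 and 3.

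A list of 30 genes known for alternative transcripts in red cell precursors held none of the 37. The count floor was passed by 25 of them, and the rule found 0.572% of all genes past the floor. In estradiol-treated WT cells 23 of 29 tested rose and 3 fell by edgeR, beside 43.3% and 46.4% of all genes, with a median log2 fold change of 1.42. Sptb, spectrin beta of the membrane skeleton, rose to 4286 ± 25.6 CPM, against 84.8 ± 5.30 in untreated WT cells (log2 fold change 6.004), and the survival gene Bcl2l1 to 773 ± 0.991, against 44.1 ± 1.61 (4.47). In mutant cells 12 rose and 15 fell against estradiol-treated WT cells, beside 35.1% and 33.6%, and with 5-ALA 13 rose and 6 fell against mutant cells, beside 21.6% and 21.0%. The transferrin receptor gene Tfrc rose with 5-ALA to 1160 ± 27.6 CPM, against 734 ± 21.2 in mutant cells (log2 fold change 0.76).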

How the data were processed

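Total RNA of 12 libraries was purified with TRIzol and prepared with a TruSeq kit, per the labels' protocols. Listed in the submitters' processing notes are RSEM 1.2.20 with Bowtie 1.1.1, CASAVA 1.8.2 and the build mm10. Per the file headers, the authors' tables give each gene's expected count, TPM, FPKM, length and effective length, and its transcript identifiers. The deposited FPKM was left out. Each effective length lies 49 bases below the length. Both are in bases, as the authors deposited them. Symbols and transcript structures came from GENCODE M21, which matched 24746 of 25097 genes. Of genes with 1 listed transcript, 63.9% had exactly the M21 length and 86.0% were within 5%, so shares of transcripts are arithmetic bounds that hold only under M21 lengths, an analysis chosen after values were seen.

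The genes and lists were chosen with earlier results of these data known. CPM are expected counts over the library total. For tests, expected counts were rounded, filtered with filterByExpr (12115 genes), scaled by TMM and fitted as 4 group means over all 12 libraries with edgeR 4.0.16 in R 4.3.3 (quasi-likelihood F test, robust, Benjamini-Hochberg, called below an adjusted p of 0.05). Each SE was approximated by dividing the size of the log2 fold change by the root of its F value. The common biological coefficient of variation was 0.0334, so small differences pass. Log2 lengths of the 6 mutant libraries were fitted with limma 3.58.1 (trend, robust) over 5233 genes. Alternatives used DESeq2 1.42.0, RLE size factors, no filter, limma on log2(TPM + 1) with a pseudocount of 1, the replicate number as a block, and leaving out each library. Both tests were tested on simulated data, where false calls of the length test made up more than its nominal 5% of calls. Scaling by total counts in place of TMM moved the median log2 fold change of all genes by 0.15 in mutant against WT cells, -0.10 with 5-ALA and -0.34 in WT cells.

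Genes were named by a written rule. For lengthened and shortened genes each, it took the 10 with the largest length ratio, the 6 with the highest mean CPM over the 4 groups, those called in length with 5-ALA and the 6 whose mutant length lay farthest from estradiol-treated WT cells on the log2 scale. It added the 3 genes nearest each side of each limit and, from each list, the 4 called genes with the largest change, of which some are given only in counts. Any further gene was picked with its values known. Some genes that the rule names are not reported here.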

Additional observations from a re-analysis of the deposited data

How the results depend on the processing

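With a ratio of 2 or 1/2 the rule found 6 lengthened and 2 shortened genes, and with a floor of 20 CPM 12 and 11. A floor of 5, effective length or medians stayed within 1.5 times of 19 and 18. Leaving out each WT library gave 18 to 22 lengthened and 17 to 21 shortened genes. The number of genes whose mutant and estradiol-treated WT lengths did not overlap was 25 with either length column.

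For lengths with 5-ALA, fitting all 12 libraries called 7 longer and 11 shorter genes, among them 1 longer and 1 shorter of the 37. The spread of the WT lengths, which the rule used, enters that fit, so it is no test of the 37. The single longer gene of the fit to mutant libraries was lost at a floor of 20 (0 genes) and with the replicate number as a block (0 genes). Leaving out each library gave 1 longer gene, 0 to 1 shorter genes (1 without 5-ALA replicate 2) and none of the 37. For counts, limma on log2(TPM + 1) called 2326 lower genes in mutant cells. With 5-ALA it called 806 higher and 5719 lower genes, 4 and 17 of them among the 37. It reversed Gpr107 (0.35), Tma16 (0.17), Pnkd (0.56) and Zbtb8os (0.43) in mutant cells and Pnkd (-0.35) with 5-ALA. TPM divides by length, and it was not rescaled for composition. The other count alternatives, DESeq2, RLE size factors, no filter and the block, stayed within 1.5 times of the main counts of calls. Leaving out each library gave 8 to 9 higher and 20 to 22 lower of the 37 in mutant cells, and 9 to 12 higher and 8 to 10 lower with 5-ALA.

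Same-numbered libraries did not deviate together (correlations from -0.10 to 0.07 over 18 pairs, and 4 of 12 libraries correlated best with their own number). No pairing by number was thus seen, which does not show how the libraries were prepared. With the replicate block 8 higher and 22 lower of the 37 were called in mutant cells, and 12 higher and 10 lower with 5-ALA. Estimates of length rest on reads that tell transcripts apart, and their number per gene is unknown here. The 37 genes had from 258 to 27693 expected counts per library.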
